A study of Homo sapiens with 6 samples.

Results

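The fibroblast growth factor (FGF) family was described here through 8 genes measured in ARPE-19, an established line of human retinal pigment epithelium (RPE): the ligand genes FGF1, FGF2 and FGF5, the signalling receptor genes FGFR1, FGFR2, FGFR3 and FGFR4, and the decoy receptor gene FGFRL1. They were taken by gene symbol, with earlier results of these data known, and all 8 were found among the 20461 Ensembl entries of the deposited tables. RNA-seq was available for 6 libraries of ARPE-19 cells that had been exposed to 37.5 mM glucose for 48 h. In 3 libraries the cells carried a control lentivirus and in 3 they carried a lentivirus overexpressing human PDZK1, a scaffold protein with PDZ domains. Both groups had received virus at an MOI (multiplicity of infection) of 10 and 4 µg/ml puromycin for stable selection, so virus dose, selection and high glucose were shared by the 2 groups. The groups were transduced and selected separately, and a difference between the selected populations cannot be told apart from one due to PDZK1. No library in normal glucose was analysed here, and nothing in the labels says that the 3 libraries of a group came from separate cultures, so the p-values measure the spread between these libraries, which may be technical.

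FGFs are extracellular ligands that bring receptor tyrosine kinases together on the cell surface, with heparan sulphate chains of proteoglycans as a required partner. The activated receptor passes its signal through the adaptor FRS2 to the RAS-MAPK and phosphatidylinositol 3-kinase cascades, and Sprouty, SPRED and DUSP proteins damp it. FGF1 and FGF2 have no signal peptide and leave the cell by an unconventional route, while FGF5 is secreted in the usual way. In the retina, basic FGF (the product of FGF2) is known as a survival factor for photoreceptors and as an angiogenic factor.

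The main result was a lower level of the most abundant ligand and of the predominant receptor. In the cells overexpressing PDZK1, FGF2 mRNA fell by 23.3% and FGFR1 mRNA fell by 14.4%, both past an adjusted p of 0.05. With single libraries left out in turn, the FGF2 call was kept in 1 fit, that without control replicate 3, and lost in 5. The FGFR1 call was kept in 3 such fits and lost in 3. FGF1, FGF5, FGFRL1 and FGFR3 did not pass the test, and FGFR2 and FGFR4 had too few reads to be tested. Among the other genes of the pathway, transcripts for heparan sulphate proteoglycans and their modifying enzymes held 7 of the 12 genes past the threshold. Their list held 30 of the 103 tested pathway genes, and 3.83% of all tested genes (522) passed. The 7 became 2 when PDZK1 replicate 1 or 3 was left out, and the 522 became 181 or 206.

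The region just upstream of a ligand gene is shown for FGF2, whose mRNA was lower, and for FGF5, the other abundant ligand, whose difference did not pass the test. FGF2 lies on the plus strand of chromosome 4 at chr4:122826708-122898236 (GRCh38, GENCODE annotation, 4 transcripts) and FGF5 on the plus strand of the same chromosome at chr4:80266599-80336680 (5 transcripts). The FGF2 sequence covers chr4:122826581-122826707 and the FGF5 sequence covers chr4:80266338-80266587, both from RefSeq (GRCh38.p14), plus strand, 5′ to 3′, and both end before the first annotated transcript start. Capitals mark a GC box, searched as GGGCGG on both strands (CCGCCC when read on the strand shown).
FGF2: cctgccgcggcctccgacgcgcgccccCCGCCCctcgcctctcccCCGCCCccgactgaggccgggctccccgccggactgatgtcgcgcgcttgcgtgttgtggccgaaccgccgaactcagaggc
FGF5: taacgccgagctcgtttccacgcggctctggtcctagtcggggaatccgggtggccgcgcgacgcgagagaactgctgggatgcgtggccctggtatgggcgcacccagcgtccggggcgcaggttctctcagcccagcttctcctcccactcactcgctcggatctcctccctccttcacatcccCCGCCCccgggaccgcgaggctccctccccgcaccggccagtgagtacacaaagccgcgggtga
The FGF2 stretch of 127 bases held 2 GC boxes at a GC content of 78.0%, and the FGF5 stretch of 250 bases held 1 at 68.8%. Neither held a TATA box (TATAAA, both strands). A further RefSeq promoter entry of FGF5, downstream at chr4:80268018-80268267 and not shown, held 2 TATA boxes and 0 GC boxes at a GC content of 47.2%. A GC box stood in the 250 upstream bases of 42.5% of 34943 RefSeq promoters and a TATA box in 10.8%, so the motifs describe these windows and do not set the pair apart.

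Sequencing was deep and even. The libraries held 27970618 to 32804567 counts over all listed entries, and 3 counts, the limit that a count of 0 allows, corresponded to 0.0915 to 0.109 CPM (counts scaled to a common library size). PDZK1, the check of the labels, had 19, 18 and 23 counts under the control virus and 3020, 2541 and 2828 under the PDZK1 virus. Control replicate 3 had the smallest total and stood apart on the second principal component, with a score of -29.99 against 14.45 and 18.79 for the other control libraries; results that it decides are given with and without it. Across 13645 tested genes, 522 (3.83%) passed the threshold, 193 higher (1.41%) and 329 lower (2.41%) in the PDZK1 cells. The cells expressed the epithelial keratins KRT8 and KRT18, at 1073 to 1221 and 699.5 to 826.1 CPM, and OTX2 and MITF, regulators of pigment epithelium identity. Of 18 pigment epithelium markers, 3 (RPE65, TYR and TTR) had at most 3 counts in every library. Others were detected, such as RLBP1 at 95 to 166 and RDH5 at 170 to 207 counts. LRAT had 66 to 78 counts in control and 31 to 65 in PDZK1 libraries. None of the 14 tested markers passed the test, and their log2 fold changes lay above 0 in 7 and below 0 in 7. The 1 with an unadjusted p under 0.05 in edgeR was LRAT (log2 fold change -0.82), beside 17.5% of all tested genes.

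Per unit of length, the ligand and receptor genes spanned a wide range of expression. FPKM, which scales counts by transcript length and by library size, allows levels of different genes to be set side by side, and on this scale FGF2 led with a mean of 148 FPKM over the 6 libraries, the 377th highest of 20461 entries. FGF5 followed at 34.6, FGFR1 at 22.5, FGFRL1 at 17.8 and FGF1 at 5.44 FPKM. FGFR3 at 0.106, FGFR4 at 0.01 and FGFR2 at 0.00101 FPKM lay at the bottom. The ranges of FGF2, FGF5, FGFR1, FGFRL1 and FGF1 over the 6 libraries did not overlap, although FGFR1, at 19.11 to 25.52 FPKM, came close to FGF5 above it (lowest value 26.69) and to FGFRL1 below it (highest value 18.88). FGFR3 and FGFR4 did not separate, since FGFR4 at 0.04163 FPKM in control replicate 3 exceeded FGFR3 at 0.02563 FPKM in PDZK1 replicate 3. FGFR4 and FGFR2 did not differ beyond their spread, with FGFR4 listed at 0 in 4 libraries and FGFR2 in 5.

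**Figure D1:**
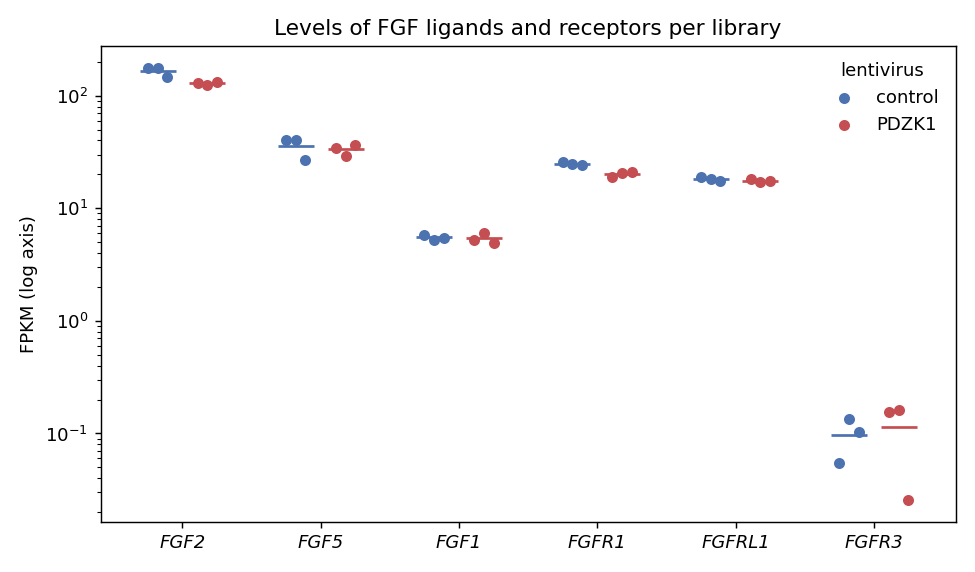
FPKM of the 6 tested FGF genes on a logarithmic axis, with 1 point per library (blue for control, red for PDZK1) and a horizontal line at each group mean. FGF2 lies between 125.1 and 177.5 FPKM, and FGFR3 lies lowest, between 0.02563 and 0.1628 FPKM; FGFR2 and FGFR4, listed at 0 in most libraries, are not drawn.

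FGF2 codes for basic FGF, a mitogen that binds heparan sulphate and signals through FGFR1. Control libraries held 1270, 1290 and 1075 CPM of it, and PDZK1 libraries 932.5, 906.7 and 950.0 CPM. Every PDZK1 library lay below every control library, with control replicate 3 the lowest of the controls. The means were 1212 ± 119 and 930 ± 21.8 CPM (SD, n = 3 each), a log2 fold change of -0.38 (SE 0.0664, 95% interval -0.53 to -0.23) with an adjusted p of 0.0168 in the edgeR quasi-likelihood test. Without control replicate 3 the log2 fold change was -0.46 with an adjusted p of 3.66e-05 in edgeR. Leaving out any other single library ended the call, with the log2 fold change between -0.40 and -0.34. The edgeR adjusted p was then 0.0654 without control replicate 1, 0.0774 without control replicate 2, and 0.0894, 0.0741 and 0.0734 without PDZK1 replicates 1, 2 and 3.

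FGFR1, a receptor tyrosine kinase that binds both FGF1 and FGF2, lies on the minus strand of chromosome 8 at chr8:38400215-38468834 and has 43 annotated transcripts. Control libraries held 114.6, 107.9 and 110.1 CPM of its mRNA, and PDZK1 libraries 95.65, 94.38 and 94.62 CPM. The groups did not overlap, and the PDZK1 libraries lay closer together than the control libraries. The means were 111 ± 3.42 and 94.9 ± 0.678 CPM (SD, n = 3 each), a log2 fold change of -0.22 (SE 0.0372, 95% interval -0.31 to -0.14) with an edgeR adjusted p of 0.0109. The call was kept by edgeR without control replicate 2 (adjusted p = 0.0403), control replicate 3 (0.00711) or PDZK1 replicate 2 (0.0476). It was lost without control replicate 1 (edgeR adjusted p = 0.0547), PDZK1 replicate 1 (0.0654) or PDZK1 replicate 3 (0.0684), with the log2 fold change between -0.24 and -0.20 over all 6 fits.

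With FGF2 and FGFR1, 2 of the 6 tested members passed the threshold (33.3%), beside 3.83% of all tested genes, both of them lower (beside 2.41%) and 0 higher (beside 1.41%), and FGF2 and FGFR1 were also the members whose groups did not overlap in CPM, beside 23.9% of all tested genes. The median log2 fold change over the 6 tested members was -0.065, beside -0.00026 over all tested genes. The plot of CPM by library shows both falls beside FGF5, in which control replicate 3 was the lowest library.

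**Figure D2:**
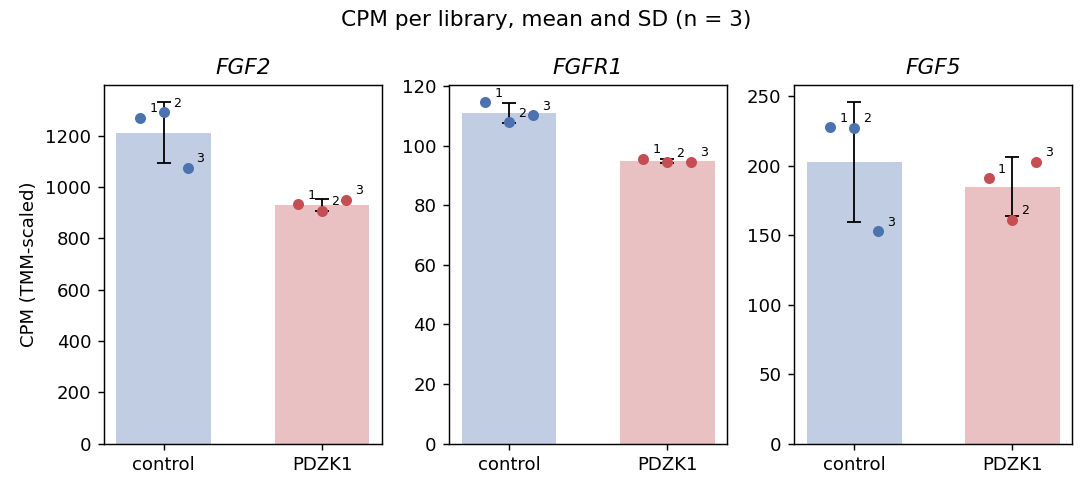
CPM of FGF2, FGFR1 and FGF5, each on a linear axis from 0; bars are group means, error bars the SD (n = 3) and points the libraries with their replicate numbers. FGF2 and FGFR1 show no overlap between groups, whereas for FGF5 control replicate 3, at 152.9 CPM, lies below all PDZK1 libraries.

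FGF1, acidic FGF, which binds all the signalling FGF receptors, lies on the minus strand at chr5:142592178-142698070 with 16 annotated transcripts. It was measured at 17.55, 18.52 and 15.22 CPM in control and 18.35, 21.21 and 19.39 CPM in PDZK1 libraries. The groups overlapped by 1 control library, replicate 2, which lay above PDZK1 replicate 1. The log2 fold change was 0.20 (95% interval -0.01 to 0.41) with an edgeR adjusted p of 0.307. In FPKM the direction was not kept, with 5.835, 5.257 and 5.411 FPKM in control and 5.216, 6.070 and 4.880 FPKM in PDZK1 libraries.

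FGF5, a secreted ligand known for ending the growth phase of the hair cycle, was the second ligand by level. It stood at 227.9, 227.6 and 152.9 CPM in control and 191.1, 161.4 and 203.0 CPM in PDZK1 libraries. Control replicate 3 was the lowest of all 6 libraries, while the other control libraries lay above every PDZK1 library. The log2 fold change was -0.13 (95% interval -0.66 to 0.39, edgeR adjusted p = 0.805), and without control replicate 3 it was -0.30 (edgeR adjusted p = 0.244). The spread between control libraries therefore left room for a difference in either direction.

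FGFRL1, which binds FGFs but lacks the tyrosine kinase domain and is regarded as a decoy receptor, lies on the plus strand at chr4:1009936-1026897. It was measured at 65.44, 63.42 and 64.76 CPM in control and 66.66, 62.89 and 64.23 CPM in PDZK1 libraries. The PDZK1 libraries enclosed the control libraries, and the log2 fold change was 0.0011 (95% interval -0.10 to 0.10, edgeR adjusted p = 0.996). Its interval was the narrowest of the members that did not pass the test, and with those of FGF1, FGF2 and FGFR1 it was 1 of 4 that excluded a 1.5-fold change either way.

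The other receptor genes were near the limit of detection. FGFR3, on the plus strand at chr4:1793293-1808872, had 9, 20 and 14 counts in control and 24, 25 and 4 counts in PDZK1 libraries, and both the highest and the lowest libraries carried PDZK1. Its log2 fold change was 0.20 with a 95% interval of -1.16 to 1.56 (edgeR adjusted p = 0.909), which holds a 2-fold change in either direction, so a difference of that size was not detectable at this depth. FGFR2, on the minus strand at chr10:121478334-121598458, had 2 counts in control replicate 1 and 0 in the other 5 libraries. FGFR4, on the plus strand at chr5:177086886-177098144, had 4 counts in control replicate 3, 3 in PDZK1 replicate 2 and 0 elsewhere. Both were removed by the filter on low counts, and no fold is given for them.

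**Figure D3:**
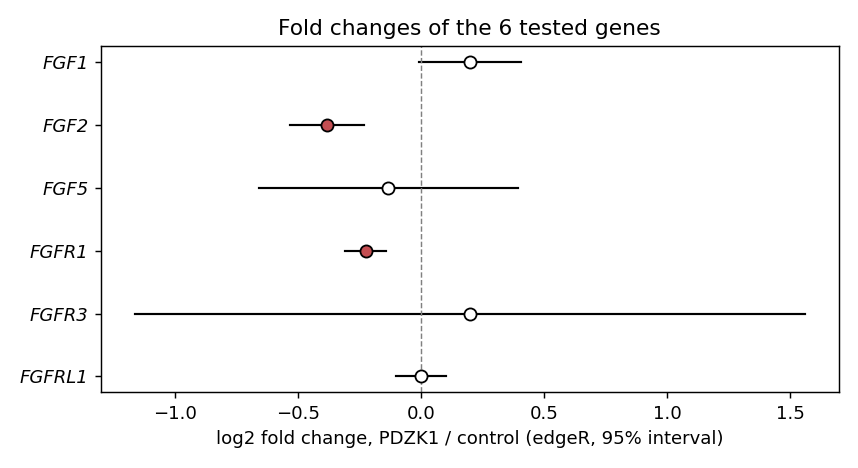
Log2 fold change of PDZK1 over control for the 6 tested members, from the edgeR fit, with 95% intervals and a vertical line at 0; filled points passed an adjusted p of 0.05. The intervals of FGF2 (-0.53 to -0.23) and FGFR1 (-0.31 to -0.14) lie below 0, and that of FGFR3 spans -1.16 to 1.56.

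The balance between members was compared on the FPKM scale. FGFR1 made up 99.8%, 99.5% and 99.4% of the summed FPKM of FGFR1 to FGFR4 in control and 99.2%, 99.1% and 99.9% in PDZK1 libraries. The difference of -0.147 percentage points was within the spread of the libraries (two-sided exact permutation p = 0.6). The summed FPKM of the 4 receptors was 25.58, 24.75 and 24.46 in control and 19.27, 20.67 and 21.03 in PDZK1 libraries, with FGFR1 as nearly the whole of each sum. FGF2 made up 79.1%, 79.6% and 82.2% of the summed FPKM of the 3 ligands in control and 76.7%, 78.0% and 76.2% in PDZK1 libraries. Its share was lower by 3.34 percentage points with no overlap between groups; the two-sided exact permutation p of 0.1 is the smallest that 3 against 3 libraries allow, so this comparison could not reach 0.05. The summed ligand FPKM was 221.7, 223.0 and 179.8 in control and 168.7, 160.5 and 173.1 in PDZK1 libraries, with control replicate 3 nearest to the PDZK1 libraries.

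Genes that share the loci of the members were measured too, because the strandedness of the counting is not given in the sources used here and reads of overlapping genes could then be counted for either. NUDT6, which overlaps FGF2 on the opposite strand and gives an antisense transcript to it, was at 2.63, 2.17 and 2.75 CPM in control and 2.18, 3.26 and 1.61 CPM in PDZK1 libraries. LETM2, opposite to FGFR1, was at 4.12, 2.56 and 3.48 CPM against 3.37, 2.99 and 3.88 CPM. CFAP299, on the same strand as FGF5, was at 3.1, 3.24 and 1.92 CPM against 2.34, 1.59 and 1.67 CPM. None of the 3 passed the edgeR test (adjusted p from 0.318 for CFAP299 to 0.989 for LETM2; 0 had an unadjusted p under 0.05, the lowest being 0.0624 for CFAP299). NUDT6 reached at most 3.26 CPM beside 906.7 or more of FGF2, LETM2 at most 4.12 beside 94.38 or more of FGFR1, and CFAP299 at most 3.24 beside 152.9 or more of FGF5.

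The chromosomal surroundings of the 2 genes that fell were summarised by their medians. Of 13 tested genes within 2 Mb of FGF2, 0 passed the edgeR threshold and 2 had an unadjusted p under 0.05, with a median log2 fold change of 0.031. Of 20 tested genes within 2 Mb of FGFR1, 1 was called higher and 1 lower (beside 1.41% and 2.41% of all tested genes), 4 had an unadjusted p under 0.05 (beside 17.5%), and the median was -0.010.

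The genes with the library pattern closest to FGFR1 and FGF2 were found by Pearson's correlation of log2 CPM over the 6 libraries. These points share the difference between groups, so the correlation is a description of likeness only, and 174 genes exceeded a correlation of 0.95 with FGFR1 and 159 with FGF2. Nearest to FGFR1 were an entry without a symbol, ENSG00000286070 (r = 0.9987), which was at 0.684 CPM in control and 0 in PDZK1 libraries, then DEPP1 (0.9985) and NPR2 (0.9933), a receptor guanylyl cyclase for C-type natriuretic peptide. DEPP1 stood at 10.65, 8.773 and 8.951 CPM in control and 5.586, 5.37 and 5.329 CPM in PDZK1 libraries. Nearest to FGF2 were TMTC1 (r = 0.9957), at 117.9, 119.1 and 97.81 against 86.39, 81.5 and 83.9 CPM, then FAM110C (0.9955) and PHYHD1 (0.9949). In both sets the named genes were lower in the PDZK1 cells, and in the set of FGF2 control replicate 3 was the lowest control library. Both traits come with the way the genes were chosen and are no separate observation.

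The rest of the pathway was read from 6 lists of 121 genes in all, of which 103 were tested and 12 passed the edgeR threshold (11.7%, beside 3.83% of all tested genes), 5 higher and 7 lower (beside 1.41% and 2.41% of all tested genes). This split turned with the scaling and the tool, to 9 higher and 4 lower with library totals only and to 11 higher and 7 lower with DESeq2, so no direction is read from it. The median log2 fold change over the tested list genes was 0.019, and 38 of them (36.9%, beside 23.9%) did not overlap between groups. The count of 12 rested on the libraries used, as did the count over all tested genes. It was 22 without control replicate 3, and 6, 5, 4, 7 and 4 without control replicate 1, control replicate 2 and PDZK1 replicates 1, 2 and 3. Over all tested genes, 522 became 875 without control replicate 3, and 268, 186, 181, 293 and 206 in the same order.

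Proteoglycans and enzymes that build or trim heparan sulphate, listed with co-receptors and FGF carriers, gave 7 of these genes among 30 tested (23.3%, beside 3.83% of all tested genes), 2 higher and 5 lower (beside 1.41% and 2.41%), with a list median of 0.026. The split was 4 higher and 3 lower with library totals only and 6 higher and 5 lower with DESeq2. The list's count was 4 without control replicate 1, 3 without control replicate 2, 10 without control replicate 3, 4 without PDZK1 replicate 2, 2 without PDZK1 replicate 1 or 3, and 0 with limma on unfiltered FPKM. SULF2, an extracellular sulphatase that removes 6-O-sulphate groups from heparan sulphate, was at 147.5, 136.1 and 130.2 CPM in control libraries and between 86.44 and 95.47 CPM in all PDZK1 libraries, with no overlap. Its log2 fold change was -0.58 (SE 0.0554, edgeR adjusted p = 0.000809). HS6ST1, a transferase that adds 6-O-sulphate, fell as well, from 32.7 ± 2.31 to 25.0 ± 1.02 CPM (SD, n = 3 each, log2 fold change -0.39, edgeR adjusted p = 0.0137). HS6ST2 and SULF1, a transferase and a sulphatase of the same kinds named here after their values were seen, did not pass, with log2 fold changes of 0.41 and -1.81 (edgeR adjusted p = 0.134 and 0.232). SULF1 was near the floor, with 11 to 20 counts in control and 0 to 9 in PDZK1 libraries.

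The syndecan and glypican core proteins that carry heparan sulphate moved in both directions. SDC3, syndecan-3, was at 38.76, 33.99 and 28.88 CPM in control and 20.57, 20.63 and 20.4 CPM in PDZK1 libraries, with no overlap and a log2 fold change of -0.72 (SE 0.0973, edgeR adjusted p = 0.00403). SDC1, syndecan-1, rose from 58.79, 59.34 and 73.24 CPM to 90.16, 102.5 and 87.65 CPM (log2 fold change 0.55, SE 0.0996, edgeR adjusted p = 0.0303), with control replicate 3 the control nearest to the PDZK1 libraries. GPC6, glypican-6, rose from 15.11, 16.15 and 13.81 CPM to 22.78, 19.5 and 23.65 CPM (log2 fold change 0.55, edgeR adjusted p = 0.0137). GPC1 (-0.26) and SDC4 (-0.17), named here after their values were seen, were the remaining members that fell, with edgeR adjusted p of 0.035 and 0.049997, the second at the threshold itself. SULF2 and SDC3 kept their calls with each library left out in turn. GPC6 lost its call without PDZK1 replicate 1 or 3, HS6ST1 without control replicate 2 or PDZK1 replicate 1 or 3, and SDC1, GPC1 and SDC4 kept theirs in 1 of 6 such fits, that without control replicate 3.

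**Figure D4:**
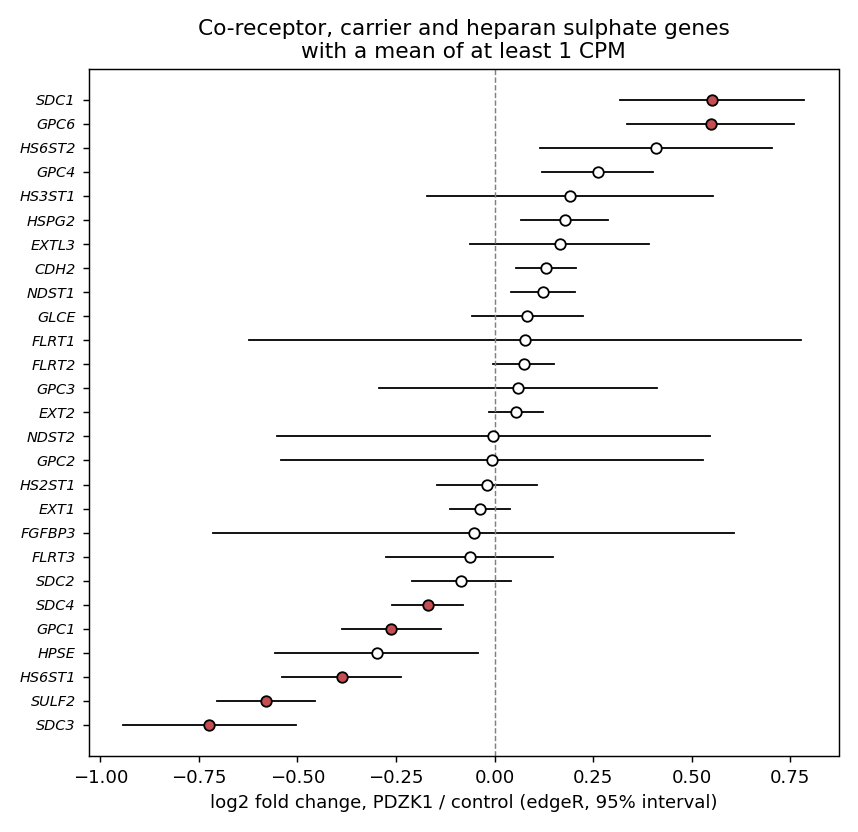
Log2 fold change with 95% interval, from the edgeR fit, for the 27 tested co-receptor, carrier and heparan sulphate genes with a mean of at least 1 CPM; filled points passed an adjusted p of 0.05. Filled points lie on both sides of 0, with SDC3 and SULF2 lowest and SDC1 and GPC6 highest.

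Of 19 other FGF family genes, listed as other FGF ligands though not all act as such, 9 had at most 3 counts in every library (FGF3, FGF4, FGF6, FGF8, FGF10, FGF16, FGF19, FGF21 and FGF23) and 7 were tested. FGF12, whose product stays inside the cell, binds voltage-gated sodium channels and does not act as a ligand of the signalling receptors, was at 8.89 ± 0.506 CPM in control and 13.7 ± 0.709 CPM in PDZK1 libraries (SD, n = 3 each). FGF12 rose without overlap between groups (log2 fold change 0.62, SE 0.0944, edgeR adjusted p = 0.00718), and the call held with each library left out in turn. FGF7, keratinocyte growth factor, named here after its values were seen, was at 1.114, 0.9388 and 0.5436 CPM in control and 0.06242, 0.4882 and 0.2838 CPM in PDZK1 libraries. Its groups did not overlap, and its log2 fold change of -1.63 did not pass (edgeR adjusted p = 0.171).

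Of 27 adaptor and RAS-MAPK genes tested, 1 passed the edgeR threshold (3.70%, beside 3.83% of all tested genes). It was PIK3R1, the regulatory subunit of phosphatidylinositol 3-kinase, at 69.81, 72.87 and 73.68 CPM in control and 84.45, 80.65 and 87.78 CPM in PDZK1 libraries (log2 fold change 0.23, edgeR adjusted p = 0.0303), and the call was kept in 2 of 6 fits with a library left out, those without control replicate 3 or PDZK1 replicate 2. The count of this list was 4 without control replicate 3 (CBL, PIK3R1, SHC1 and STAT3, 2 higher and 2 lower), beside 875 of all genes. It was 3 with library totals only (CBL, PIK3R1 and PLCG1, all higher), beside 517 of all genes. Without control replicate 1 or 2, or PDZK1 replicate 1 or 3, it was 0. FRS2, the docking protein next to the receptor, overlapped between groups and had a log2 fold change of 0.023 (edgeR adjusted p = 0.899). Of the 5 genes for secretion of FGF1 and FGF2 without a signal peptide, 0 passed the edgeR test. In edgeR 1 had an unadjusted p under 0.05 (beside 17.5% of all tested genes). This was SPHK1, sphingosine kinase 1, with a log2 fold change of 0.23 and an edgeR adjusted p of 0.063. DESeq2 called SPHK1.

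Inhibitors of the pathway and its transcriptional targets were read as 2 lists. Of 16 feedback inhibitors, which include constitutive regulators of RAS such as RASA1 and NF1, 0 passed the edgeR test, 3 had an unadjusted p under 0.05 (beside 17.5% of all tested genes) and DESeq2 called 0. The lowest p belonged to RASA1, a GTPase-activating protein for RAS, with a log2 fold change of 0.18, an unadjusted p of 0.00681 and an edgeR adjusted p of 0.1. DUSP6, the phosphatase of ERK, named here after its values were seen, was at 14.24, 13.14 and 10.26 CPM in control and 9.55, 10.01 and 10.09 CPM in PDZK1 libraries, with control replicate 3 next to the PDZK1 libraries (log2 fold change -0.35, edgeR adjusted p = 0.181). Without control replicate 3, DUSP6 and DUSP1 were both called lower, beside 875 of all genes called in that fit, 528 of them lower.

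Of 18 tested transcriptional targets, 3 passed the edgeR threshold (16.7%, beside 3.83% of all tested genes), 1 higher and 2 lower (beside 1.41% and 2.41%). ETV1, an ETS-family transcription factor, rose from 45.51, 41.83 and 45.05 CPM to 58.7, 59.65 and 60.54 CPM (log2 fold change 0.43, SE 0.0521, edgeR adjusted p = 0.00196), with the call kept in all 6 fits with a library left out. HBEGF, a ligand of the epidermal growth factor receptor, fell from 25.9 ± 0.875 to 20.6 ± 0.419 CPM (SD, n = 3 each, log2 fold change -0.33, edgeR adjusted p = 0.0184). JUN, a subunit of the AP-1 transcription factor, fell from 242 ± 3.21 to 218 ± 4.82 CPM (SD, n = 3 each, log2 fold change -0.15, edgeR adjusted p = 0.0404). HBEGF and JUN kept their calls in 1 of 6 such fits, that without control replicate 3. The list median was 0.022. Without control replicate 3 it was -0.14, with 5 genes called, 1 higher and 4 lower, IER3 and PLAUR among the latter. In that fit 875 of all genes were called, 347 higher and 528 lower, and the median over all genes was 0.001.

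Marker genes of other cell types were read beside these results, and their part in them was not tested. Of 12 fibroblast and mesenchymal markers 7 were tested and 0 passed the edgeR threshold. Of the 7, 3 had an unadjusted p under 0.05 in edgeR (beside 17.5% of all tested genes). COL1A2, THY1, DCN and LUM were at 3 counts or fewer. The summed level of the list, led by VIM, was 4459 to 5320 CPM in control and 4286 to 4717 CPM in PDZK1 libraries. VIM was the 1 tested marker of this list with a log2 fold change below 0 (-0.13), and the other 6 lay above 0, with a list median of 0.21. The markers at an unadjusted p under 0.05 were COL1A1 (0.53), FAP (0.27) and PDGFRB (0.20), and PDGFRB was called higher without control replicate 3. Of 6 endothelial markers 2 were tested and 0 passed in edgeR. The 1 with an unadjusted p under 0.05 was KDR (log2 fold change -0.47), while VWF lay at 0.68. CDH5 was at 3 counts or fewer, and the summed level of the list was 5.41 to 5.51 against 4.07 to 4.46 CPM. CD68, a macrophage marker that other cells also express in lysosomes, was at 130.6 to 160.3 CPM in control and 123.2 to 126.3 CPM in PDZK1 libraries, without overlap and without passing the test (log2 fold change -0.22, edgeR adjusted p = 0.134). Without control replicate 1 it was called lower, at -0.29. The leukocyte marker PTPRC was at 3 counts or fewer. In bulk libraries, fewer cells that express a gene and less RNA of it per cell cannot be told apart.

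**Figure D5:**
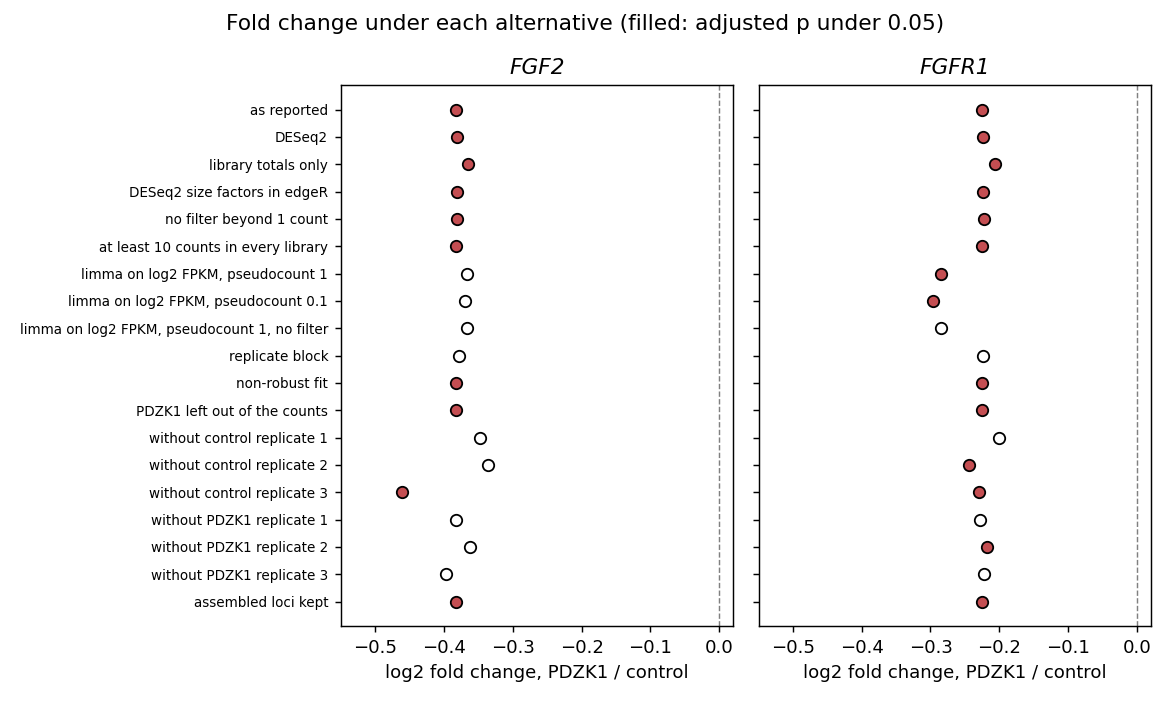
Log2 fold change of FGF2 and FGFR1 as reported and under each alternative way of processing, on a linear axis; filled points passed an adjusted p of 0.05 and open points did not. Every point lies below 0, from -0.46 to -0.34 for FGF2 and from -0.30 to -0.20 for FGFR1, while the call changes between settings.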

How the data were processed

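ARPE-19 RNA-seq libraries were grouped by the lentivirus in the labels (control or PDZK1, n = 3 each). Per the labels, total RNA was extracted with Trizol and libraries were made with a VAHTS Universal V6 kit. The submitters' processing notes name fastp 0.20.1, HISAT2 2.2.1 and GRCh38; the counting program, annotation and strandedness are not given in the sources used here. The authors deposited one table of estimated counts and one of FPKM per gene; the counts are whole numbers and were read as estimated because the tables also list 853 assembled loci, which took 0.519% to 0.536% of counts and were left out of the tests. Per table, 3 columns match no sample and were not used.

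Counts were normalized with TMM and filtered with filterByExpr, and groups were compared with edgeR 4.0.16 (robust quasi-likelihood test, Benjamini-Hochberg over 13645 genes, threshold 0.05). The standard error was derived from the test statistic. CPM used TMM-scaled library sizes. Shares were compared with two-sided exact permutation tests. Alternatives were DESeq2 1.42.0, limma 3.58.1 with a trend on log2(FPKM + 1) or log2(FPKM + 0.1) with and without a filter at a mean of 0.5 FPKM (fold changes on that scale understate those of low genes), other scalings and filters, a non-robust fit, a fit without PDZK1, a replicate block and each library left out. The scripts were tested on simulated data. Same-numbered libraries were checked for pairing by the correlation of their deviations from the group means.

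The members, the 6 pathway lists (other FGF ligands; co-receptors, carriers and heparan sulphate; adaptors and RAS-MAPK cascade; feedback inhibitors; transcriptional targets; secretion) and the marker lists (pigment epithelium, fibroblast and mesenchymal, endothelial) were chosen with earlier results of these data known. Results of 2 further marker lists are not reported here as lists. Named were all members, genes overlapping a member, at most 5 called genes per pathway list by smallest adjusted p (or the gene with the smallest p), and the 3 genes most correlated with FGFR1 and with FGF2. Promoter sequences came from RefSeq (7 of 8 members matched; FGFR1 did not), and 20229 of 20461 gene identifiers matched the GENCODE annotation used for positions. Replicate libraries differed by more than sampling noise.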

Additional observations from a re-analysis of the deposited data

How the results depend on the processing

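FGF2 and FGFR1 were lower under all 18 alternatives, with FGF2 past the threshold in 9 (adjusted p 6.55e-07 to 0.105) and FGFR1 in 13 (0.000511 to 0.0684); the cause of lost calls was not tested. The count of members past the threshold, 2 as reported, was 1 with limma on log2(FPKM + 1) and on log2(FPKM + 0.1), 0 with limma without a filter, and 0 to 2 with a library left out. For the pathway genes, 12 as reported, the counts were 18 with DESeq2, 6, 6 and 3 in the same limma settings, and 4 to 22 with a library left out. Over all genes, 522 as reported, they were 806 with DESeq2, 191, 187 and 184 in those limma settings, and 181 to 875 with a library left out. With the replicate number as a block, the members count was 0 (FGF2 -0.38, adjusted p 0.0688; FGFR1 -0.22, 0.0598) and the pathway count 6. The numbers gave no pairing: same-numbered libraries correlated at -0.0462, -0.056 and -0.143. The sign turned for FGF1 with limma (-0.028 with a pseudocount of 1, with or without a filter, and -0.034 with 0.1), for FGFRL1 with limma (-0.047 and -0.049 likewise) and without control replicate 2 (-0.012) or PDZK1 replicate 1 (-0.020), with 0.022 the highest value with a library left out, and for FGFR3 without control replicate 1 (-0.081), PDZK1 replicate 1 (-0.093) or PDZK1 replicate 2 (-0.12), with 0.66 the highest. The difference in FGF2 share ranged from -3.94 to -2.40 points and that in FGFR1 share from -0.388 to -0.0102 with a library left out. Scaling by library totals made 46.6% of all called genes higher, against 37% as reported, and moved the median gene by 0.018 on the log2 scale. Depth limits FGFR2, FGFR3 and FGFR4, and 3 libraries per group keep a two-sided exact permutation p at 0.1 or above.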

Other observations

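The 2 deposited tables did not give the same fold for every member. The count divided by the FPKM, scaled by the listed counts of the library, has the unit of a length in bases. The counting program is not given, so whether this ratio is the transcript length used for FPKM was not tested. For FGF2 it was 7178 to 7181 bases in control and 7207 to 7238 in PDZK1 libraries. For FGFR1 it was 4450, 4330 and 4466 bases in control and 5002, 4603 and 4519 bases in PDZK1 libraries, so that each PDZK1 library lay above each control library. For FGF1 it was 2980, 3479 and 2775 bases against 3516, 3490 and 3986 bases, without overlap but with 3479 close to 3490. FGF5 (5562 to 5650 against 5510 to 5596 bases) and FGFRL1 (3434 to 3678 against 3675 to 3690 bases) overlapped between groups. These ratios were not centred by library, and the share of all genes without overlap was not counted for them. A limma fit of this ratio over 11842 genes, centred on the median of each library, was added after the data had been seen. In it, 0 genes passed an adjusted p of 0.05 and 494 had an unadjusted p under 0.05. The log2 difference was 0.08 for FGFR1 and 0.25 for FGF1, with an adjusted p of 1 for both, and it was 0.0014 for FGF2.

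BEST1, a chloride channel gene among the pigment epithelium markers, had 181, 168 and 124 counts under the control virus and 11459, 143 and 137 under the PDZK1 virus. PDZK1 replicate 1 alone was high, at 357.6 CPM.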
